A study of Mus musculus with 12 samples.

Results

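The Gadd45 and Btg/Tob genes encode small stress-responsive proteins that restrain cell division. They were followed here as 9 genes, picked by symbol from the 29486 genes of the deposited table of normalized counts: Gadd45a, Gadd45b, Gadd45g, Gadd45gip1, Btg1, Btg2, Btg3, Tob1 and Tob2. Total polyadenylated RNA had been sequenced from primary splenic B cells of C57BL/6Babr mice, with 4 libraries for each of 3 conditions, and all cells had been activated with LPS at 10 μg/ml. The LPS condition received the mitogen alone and is labelled 48 h. The LE condition received LPS for 48 h and then etoposide, a topoisomerase II poison that breaks both DNA strands, at 20 μM for 4 h. The LEKU condition received LPS for 47 h, then the ATM kinase inhibitor KU55933 at 10 μM for 1 h, and then the same etoposide treatment. The LEKU titles write KU55933 and their stimulation field writes KU59933. No cells received KU55933 without etoposide. The labels do not say whether the LPS cells stayed in culture for the 4 h of etoposide, and they give no age. Each condition was sequenced with Illumina indexes that no other condition carried, so that index and condition cannot be told apart.

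Gadd45 proteins have no known enzymatic activity and act by binding others. They bind and activate the kinase MAP3K4 upstream of p38 and JNK, inhibit the mitotic kinase Cdk1 with cyclin B1, bind PCNA and p21, and have been linked to active DNA demethylation. Btg and Tob proteins share an N-terminal domain that binds the CCR4-NOT deadenylase, the complex that shortens poly(A) tails, and they are known to limit proliferation of lymphocytes. Gadd45gip1 belongs to neither family by sequence. It is a protein of the large subunit of the mitochondrial ribosome, named for its binding to Gadd45 proteins.

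Between the 4 columns of a condition, all 29486 genes had the same ratio, to within 2.68e-14 (log2). The columns of a condition thus repeat 1 fitted mean, times a library factor, and carry no replicate error. No test between conditions was possible and no p-value is given. A gene was instead counted as higher or lower when its ratio passed 1.5-fold on the log2(value + 1) scale. The 95% intervals given are exact, treat the fitted counts as reads and cover counting error only. Total fitted counts per library were 20739978 to 23935658 with LPS, 22523516 to 30575195 with LE and 20400994 to 25052093 with LEKU. A level below is the fitted count after scaling by the median of ratios. In bulk RNA, fewer cells of a type and less RNA per cell cannot be told apart.

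All 9 genes had a value of at least 10 in each of the 12 libraries, and so all passed the filter on low values that kept 15614 genes. With etoposide 6 of the 9 were higher than with LPS alone (Tob1, Btg2, Gadd45b, Gadd45a, Btg3 and Tob2), none was lower, and Gadd45g, Btg1 and Gadd45gip1 did not pass 1.5-fold. Their median log2 difference was 0.88, against 0.04 over all genes kept. Of all genes kept, 23.4% were higher and 14.4% lower. With KU55933 under etoposide 2 of the 9 were higher than with etoposide alone (Gadd45b and Tob2), none was lower and 7 did not pass, with a median of 0.09 against −0.05 over all genes. Here 6.93% of genes were higher and 11.9% lower. Against LPS alone, 6 of the 9 were higher in LEKU, with Gadd45g in the place that Btg3 held in LE, and none was lower. The median was 1.12 against 0.07 over all genes, of which 22.0% were higher and 14.2% lower. The comparisons share libraries, so that their counts are not independent of each other.

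**Figure D1:**
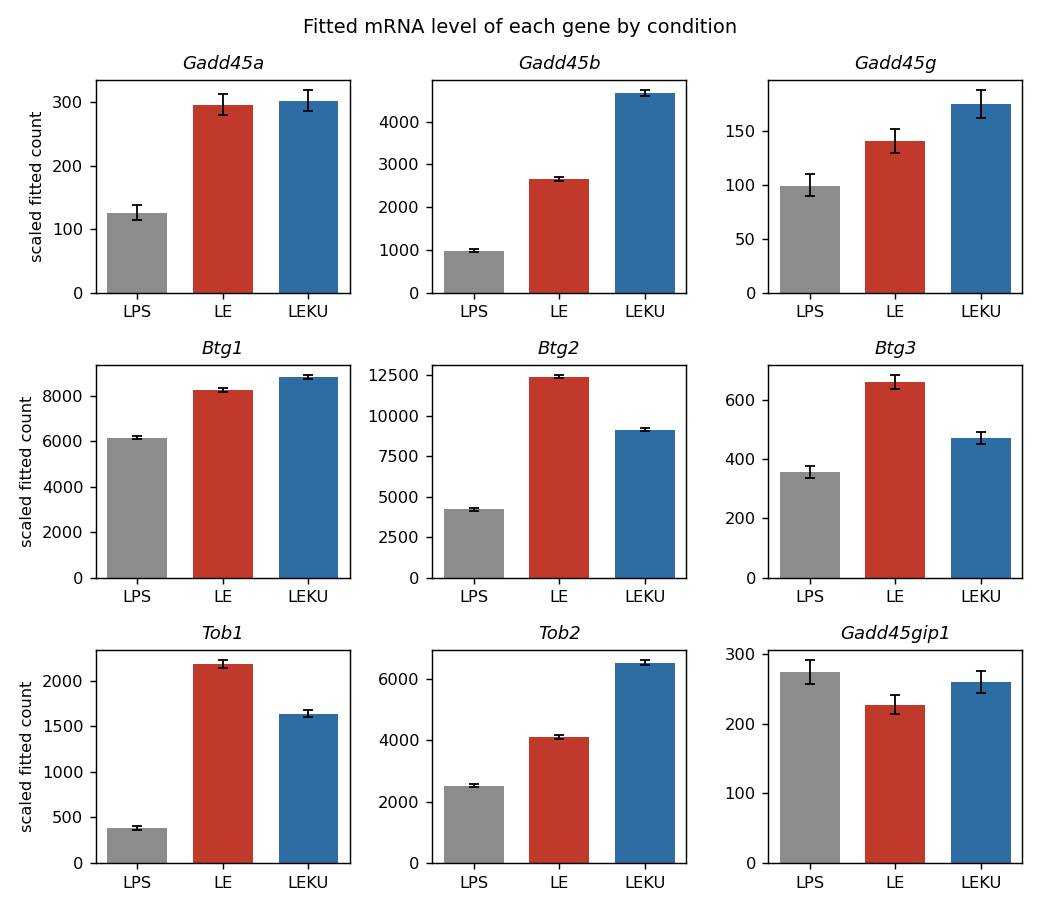
Level (scaled fitted count, linear axis from 0, a separate axis for each gene) of the 9 genes in the LPS, LE and LEKU conditions. Bars are the 1 fitted mean of each condition and error bars are 95% exact intervals for counting error only. Gadd45b goes from 978 to 2658 to 4676, while Btg2 goes from 4209 to 12394 and back to 9138.

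The counts of genes past 1.5-fold depend on the scaling. With the median of ratios, 62.0% of the calls over all genes in LE against LPS were higher, and this share was 81.9% with the columns as deposited, 44.6% after quantile normalization and 49.4% with the median of ratios over all genes of the table. In LEKU against LE it was 36.7%, with 25.6% as deposited and 49.2% after quantile normalization. For LEKU against LPS it was 60.7%, with 76.8% as deposited, 72.1% with library totals and 49.1% after quantile normalization. The columns as deposited still hold the library factor, so that their shares also reflect differences between library totals. With the median of ratios over all genes of the table, 5 of the 9 genes rather than 6 were higher with etoposide, since Tob2 was then at 0.55 and under the threshold of 0.58.

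The Gadd45b, Btg2 and Tob1 promoters are shown because these genes had the largest differences in LE against LPS and lay on opposite sides of 0 in LEKU against LE. Each is the 250 bases before the RefSeq start of the gene on its own strand, GRCm38.p6, 5′ to 3′. Capitals mark the E-box CACGTG in Gadd45b, the cyclic AMP response element TGACGTCA in Btg2 and the CCAAT box, read on either strand, in Tob1.
Gadd45b, chr10:80929841-80930090, plus strand: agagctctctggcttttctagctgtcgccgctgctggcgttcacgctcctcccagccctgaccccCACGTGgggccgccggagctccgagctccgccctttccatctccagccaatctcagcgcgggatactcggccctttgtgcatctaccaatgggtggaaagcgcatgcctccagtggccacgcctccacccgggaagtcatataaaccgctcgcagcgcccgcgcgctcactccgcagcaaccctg
Btg2, chr1:134079156-134079405, minus strand: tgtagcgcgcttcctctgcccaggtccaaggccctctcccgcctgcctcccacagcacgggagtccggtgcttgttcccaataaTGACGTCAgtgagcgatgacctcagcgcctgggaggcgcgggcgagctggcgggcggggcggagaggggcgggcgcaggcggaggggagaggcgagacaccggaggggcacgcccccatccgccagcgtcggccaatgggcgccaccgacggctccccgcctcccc
Tob1, chr11:94211204-94211453, plus strand: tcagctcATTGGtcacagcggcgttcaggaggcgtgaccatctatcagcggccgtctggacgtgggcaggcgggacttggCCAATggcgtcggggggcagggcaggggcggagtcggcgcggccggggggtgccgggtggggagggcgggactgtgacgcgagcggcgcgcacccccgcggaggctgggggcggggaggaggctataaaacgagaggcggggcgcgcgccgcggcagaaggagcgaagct

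The RefSeq table held 8 of the 9 genes, and Gadd45gip1 had no entry. Motifs were searched on both strands in these windows and in all 32851 windows of the table. The Btg2 element TGACGTCA starts 166 bases upstream and was in 1.55% of all windows, and Btg2 was the only one of the 8 genes with it. It contains the shorter element TGACG, which Btg1 and Tob1 held as well (17.8% of all windows). A match to 1 decamer of the p53 response element lies 40 to 31 bases upstream in Gadd45a and in none of the other windows of these genes (7.13% of all windows). CACGTG was in Gadd45b and Gadd45g (6.02%), a match to the C/EBP-ATF motif TGATGNAA in Gadd45g (3.45%), the FOXO motif GTAAACA in Btg1 (3.17%) and an NF-kB motif in 1 of the 2 Btg3 windows (3.90%). CCAAT was in 7 of the 8 genes (33.8%), the GC box GGGCGG in 7 (32.7%) and TATAAA in 4 (12.4%). The AP-1 motif TGANTCA (6.75%), the EGR motif GCGTGGGCG (0.536%) and the CArG box (1.47%) matched in none of the windows of these genes. These are letters found in a window of fixed length and carry no information on binding.

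Among the Gadd45 genes, Gadd45b had the largest differences. It is the member best known as an NF-kB target in lymphocytes and lies on chromosome 10 from 80930073 to 80932204 (GRCm38, plus strand, 3 exonic blocks). The deposited normalized counts of Gadd45b were 819, 909, 946 and 852 in the LPS libraries, 2543, 2851, 3453 and 2764 in the LE libraries and 4209, 4746, 5085 and 5169 in the LEKU libraries. The LPS values were the lowest and the LEKU values the highest. Within a condition the values differ by the library factor alone, so that their separation carries no information on replicates. After scaling, Gadd45b went from 978 with LPS to 2658 with LE, a log2 difference of 1.44 (counting interval 1.388 to 1.497). With KU55933 it was at 4676, a further 0.81 (0.78 to 0.85) above etoposide alone and 2.26 above LPS. The difference LEKU against LE was above that of 96.8% of the genes kept, and it stayed between 0.73 and 0.94 over the alternatives tried.

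Gadd45a was the p53 target of the family first described in the response to DNA damage. It lies on chromosome 6 from 67035096 to 67037457 (minus strand). Its level was 126 with LPS, 297 with LE and 302 with LEKU. The log2 difference with etoposide was 1.23 (counting interval 1.08 to 1.39). With KU55933 it differed from etoposide alone by 0.03 (−0.09 to 0.14), and the sign of this small value changed over the alternatives, from −0.06 to 0.08. Gadd45a shares 337 exonic bases with the antisense transcript E230016M11Rik, whose own levels were 30.0, 11.6 and 15.3 in LPS, LE and LEKU. The library kit is stated to keep strand and the strand setting of the counting is not given in the sources used here.

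Gadd45g, on chromosome 13 from 51846678 to 51848468 (plus strand), is known as an inhibitor of growth that is silenced in many tumours. Its level was 99.2 with LPS, 141 with LE and 175 with LEKU. The differences were 0.50 (counting interval 0.31 to 0.69) with etoposide and 0.31 (0.16 to 0.47) with KU55933 under etoposide, neither past 1.5-fold, and 0.81 for LEKU against LPS, which passed it. It has the lowest counts of the 9 genes. Its difference with etoposide passed 1.5-fold with the columns as deposited, at 0.77, and that of LEKU against LPS fell under it after quantile normalization, at 0.53.

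**Figure D2:**
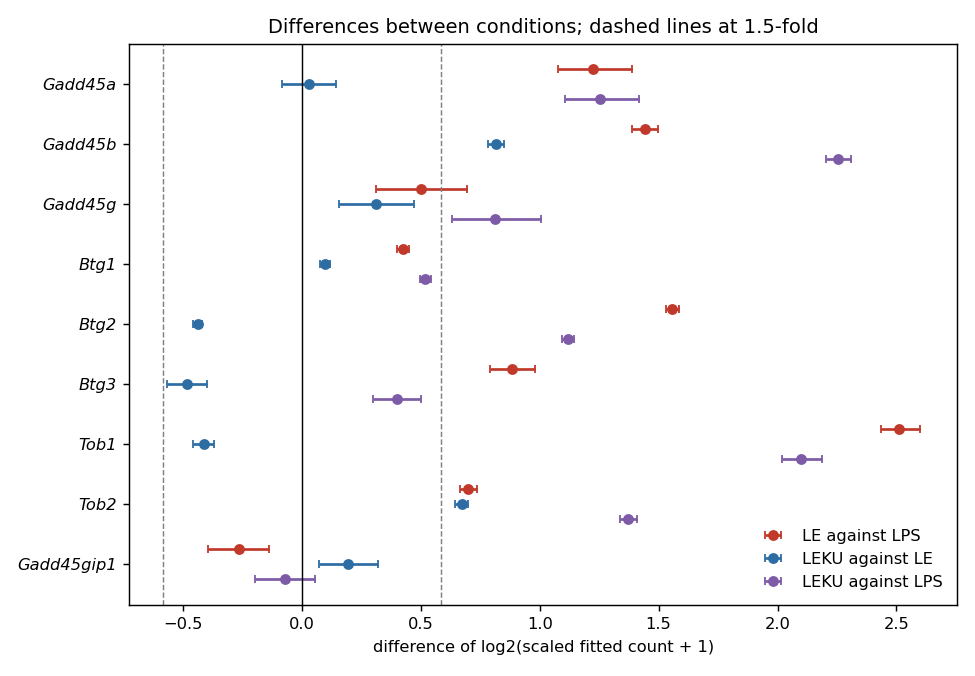
Difference of log2(scaled fitted count + 1) for each gene in LE against LPS, LEKU against LE and LEKU against LPS, with 95% exact intervals for counting error only. Dashed lines stand at 1.5-fold either way and the solid line at 0. Gadd45b and Tob2 are the genes to the right of the dashed line in LEKU against LE, at 0.81 and 0.67.

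Per kilobase of exon, Gadd45b made up most of the summed level of Gadd45a, Gadd45b and Gadd45g in each condition. Its share of that sum was 79.8% with LPS, 85.3% with LE and 90.2% with LEKU. The summed level per kilobase of the 3 genes was 2.54 times as high with LE as with LPS and 1.66 times as high with LEKU as with LE. The level of Gadd45g per kilobase was above that of Gadd45a with LPS (84.6 against 71.6) and below it with LE (120 against 168) and LEKU (149 against 171). By scaled level, without division by length, Gadd45a was above Gadd45g in each condition (126 against 99.2, 297 against 141 and 302 against 175). The order with LPS thus rests on the lengths used. These were 1764 bases over 7 transcripts for Gadd45a and 1173 bases over 2 for Gadd45g.

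Among the Btg and Tob genes, Tob1 had the largest ratio with etoposide. Tob1, on chromosome 11 from 94211454 to 94215495 (plus strand), encodes an adaptor that links the deadenylase to RNA-bound proteins and was described as a factor of lymphocyte quiescence. The deposited values of Tob1 were 319, 354, 368 and 332 with LPS, 2086, 2338, 2831 and 2266 with LE, and 1472, 1660, 1778 and 1808 with LEKU. The values with etoposide lie above those with LPS, and the LEKU values below the LE values, again as 1 fitted mean per condition. After scaling the levels were 381, 2179 and 1635, which makes LE 5.71 times as high as LPS. The log2 difference of 2.51 (counting interval 2.43 to 2.60) was above that of 96.3% of the genes kept. LEKU differed from LE by −0.41 (−0.46 to −0.37), under 1.5-fold, and from LPS by 2.10.

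Tob2, on chromosome 15 from 81848272 to 81858796 (minus strand), is the closest relative of Tob1 and binds the same deadenylase. Its deposited values were 2113, 2345, 2439 and 2198 with LPS, 3921, 4394, 5322 and 4260 with LE, and 5877, 6627, 7100 and 7217 with LEKU. The LEKU values were the highest, and the absence of overlap between conditions restates the ratio of the fitted means. The scaled levels were 2522, 4097 and 6528. The difference with etoposide was 0.70 (counting interval 0.66 to 0.74), and that with KU55933 under etoposide was 0.67 (0.64 to 0.70), above 94.8% of the genes kept. Both lie near the threshold. The first fell under it with the median of ratios over all genes of the table (0.55) and the second with the columns as deposited, where it was 0.583 against 0.585. Tob2 shares 289 exonic bases with the antisense gene Gm49476.

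Per kilobase of exon, Tob1 and Tob2 changed places. Tob2 was at 2.27 times the level of Tob1 with LPS, at 0.645 times with LE and at 1.37 times with LEKU. By scaled level, without division by length, Tob2 was above Tob1 in each condition (2522 against 381, 4097 against 2179 and 6528 against 1635). The order with LE thus rests on the lengths used, which count all annotated exons. These were 6664 bases over 4 transcripts for Tob2 and 2288 bases over 1 for Tob1. Which transcripts were expressed was not tested. A ratio within a library is not touched by the factor that scales the library.

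Btg2, a p53 target and the most abundant of the family per kilobase, lies on chromosome 1 from 134075170 to 134079120 (minus strand, 2 exonic blocks). The deposited values of Btg2 were 3527, 3913, 4070 and 3668 with LPS, 11861, 13294, 16101 and 12887 with LE, and 8226, 9276, 9938 and 10101 with LEKU. The LEKU values lie between those of the other conditions, which is again a property of the fitted means and not agreement of replicates. The scaled levels were 4209, 12394 and 9138. The log2 difference was 1.56 (counting interval 1.53 to 1.58) with etoposide, −0.44 (−0.46 to −0.42) for LEKU against LE and 1.12 for LEKU against LPS. By scaled level, without division by length, Btg2 was below Btg1 with LPS (4209 against 6167) and above it with LE and LEKU. The order of these genes with LPS thus rests on the lengths used, 2743 bases for Btg2 and 5276 for Btg1.

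Btg1, the nearest relative of Btg2 and a gene often mutated in B-cell lymphoma, lies on chromosome 10 from 96617006 to 96622809 (plus strand). Its level was 6167 with LPS, 8272 with LE and 8832 with LEKU. The differences were 0.42, 0.09 and, for LEKU against LPS, 0.52, none past 1.5-fold. The first passed it with the columns as deposited (0.70) and after quantile normalization (0.64). The third passed it with these scalings (0.71 and 0.81) and with library totals (0.65).

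Btg3, an antiproliferative protein reported to bind E2F1 and Chk1, lies on chromosome 16 from 78332637 to 78377192 (minus strand, 7 exonic blocks). Its level was 356 with LPS, 658 with LE and 470 with LEKU. It was higher with etoposide by 0.88 (counting interval 0.79 to 0.98). LEKU against LE was −0.48 (−0.57 to −0.40), short of 1.5-fold, and LEKU against LPS was 0.40, which passed it with the columns as deposited (0.586). Btg3 shares 695 exonic bases with Cxadr on the other strand, whose levels were 20.8, 103 and 83.4.

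**Figure D3:**
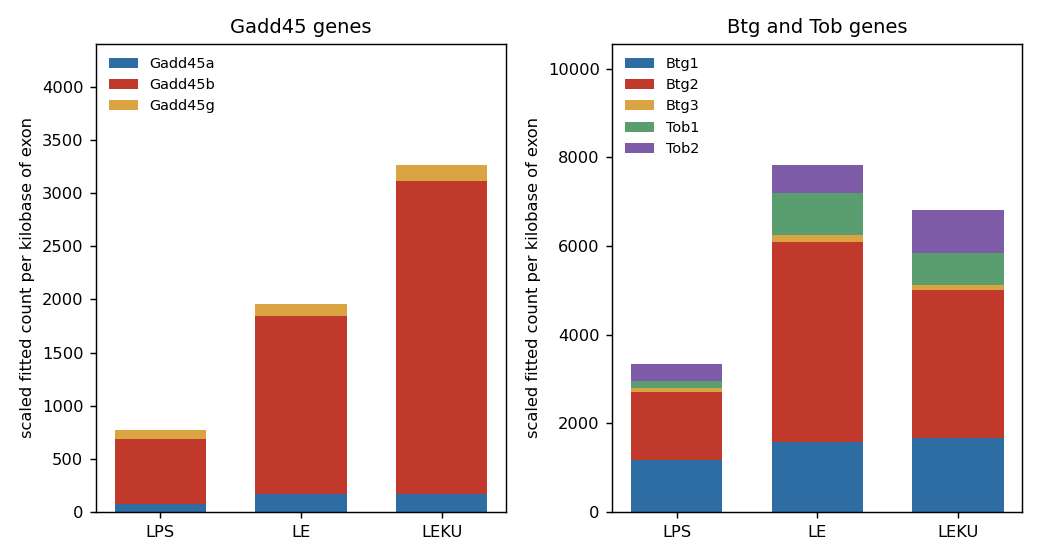
Level per kilobase of exon (scaled fitted count per kilobase, linear axis from 0), stacked by gene, for the Gadd45 genes (left) and the Btg and Tob genes (right) in LPS, LE and LEKU. Gadd45b makes up 79.8%, 85.3% and 90.2% of the left stacks, and Btg2 46.0%, 57.8% and 48.9% of the right stacks.

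The sum of the 5 Btg and Tob genes per kilobase was 2.34 times as high with LE as with LPS and 0.872 times as high with LEKU as with LE. Btg2 held 46.0% of this sum with LPS, 57.8% with LE and 48.9% with LEKU. The share of Btg1 was 35.0%, 20.1% and 24.6% in the same order, that of Tob1 4.99%, 12.2% and 10.5%, and that of Tob2 11.3%, 7.86% and 14.4%. Btg3 held between 1.72% and 2.66%. These shares rest on the exon lengths used as well.

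Gadd45gip1, on chromosome 8 from 84831522 to 84835482 (plus strand), had a level of 274 with LPS, 228 with LE and 260 with LEKU. Its differences of −0.27, 0.19 and −0.07 did not pass 1.5-fold. The first was between −0.43 and 0.01 over the alternatives, so that its sign depends on the scaling. Of the 46 genes of the mitochondrial large ribosomal subunit that were kept, 0 were higher and 3 lower with etoposide (median −0.06), Mrpl17 at −0.78 and Mrpl41 at −0.75 among them. With KU55933 under etoposide, 0 were higher and 1 lower, Mrpl16 at −0.64, and against LPS 0 were higher in LEKU and 4 lower, Mrpl18 at −0.83 and Mrpl41 at −0.78. Of all genes kept, 23.4% were higher and 14.4% lower with etoposide. These shares were 6.93% and 11.9% in LEKU against LE, and 22.0% and 14.2% in LEKU against LPS. They also stand beside the counts of the lists that follow, and no list was tested as a set.

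**Figure D4:**
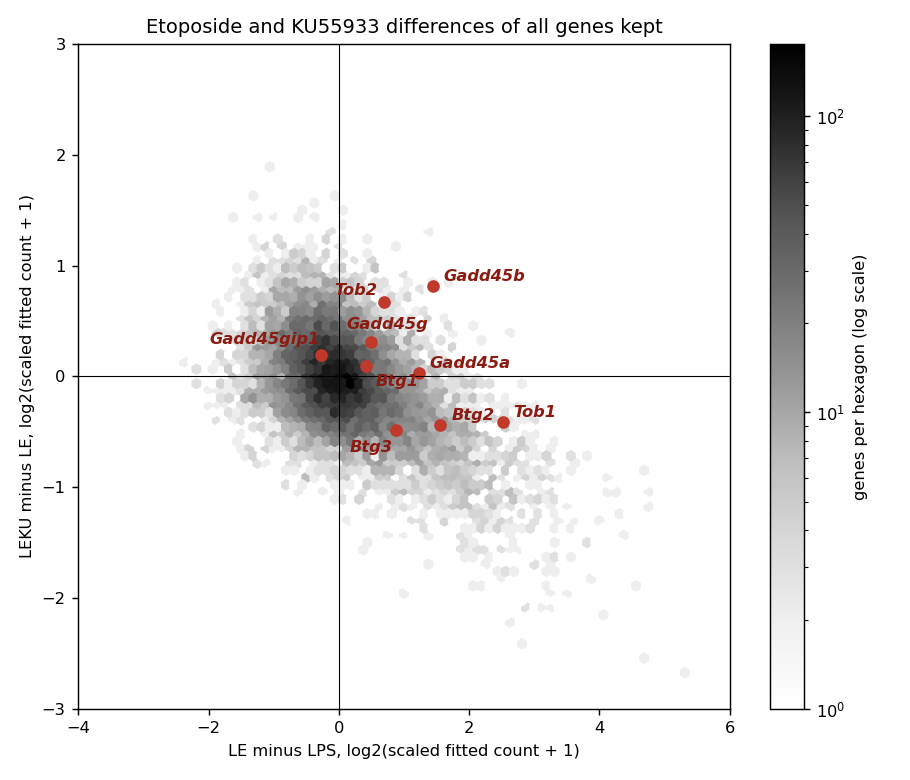
Difference LEKU minus LE (vertical) against LE minus LPS (horizontal), both of log2(scaled fitted count + 1), for the 15614 genes kept (grey hexagons, darker for more genes on a log scale) and the 9 genes (red). Both axes contain the LE condition. Tob1, Btg2 and Btg3 lie to the lower right, at −0.41, −0.44 and −0.48 on the vertical axis, and Gadd45b and Tob2 to the upper right, at 0.81 and 0.67.

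For each of the 6 genes past 1.5-fold, the 3 genes with the most similar pair of differences (LE against LPS and LEKU against LE) were found among 11289 genes with a level of at least 50 in every condition. Likeness was the straight-line distance in that plane on the log2 scale. The nearest to Gadd45b was Acot2, a mitochondrial acyl-CoA thioesterase, at a distance of 0.11, followed by Gm37176 at 0.19 and the ERK phosphatase Dusp5 at 0.20. The levels of Dusp5 were 180, 448 and 879. The nearest to Tob1 were Prkaa2, a catalytic subunit of AMP-activated kinase (distance 0.06), Lrrc51 (0.07) and Dcun1d3 (0.08). The nearest to Tob2 were Cage1 (0.09), the small GTPase Gem (0.10) and Sccpdh (0.11), and those to Gadd45a were Cep290, Nabp1 and Yod1 (0.02 to 0.03). Btg2 lay nearest to Tert, the catalytic subunit of telomerase (0.009), then Trip6 (0.01) and Ulbp1 (0.05). Btg3 lay nearest to Zfp654, Abhd14a and Txnrd1 (0.02 to 0.03).

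Btg and Tob proteins act through the deadenylase. Of 17 genes for CCR4-NOT subunits and other poly(A) tail proteins, 0 were higher and 3 lower with etoposide, with a median of −0.28. Over all genes kept, 23.4% were higher and 14.4% lower, with a median of 0.04. The lowest values were those of Cnot6l, a catalytic deadenylase subunit (5074 with LPS, 2648 with LE, −0.94), and Cnot2, a scaffold subunit (−0.92). Cnot7 and Cnot8, the catalytic subunits that bind Btg and Tob proteins directly, were at 0.14 and 0.12. With KU55933 under etoposide, 1 of the 17 was higher (Tnks1bp1, 0.87) and 0 were lower. Against LPS, 0 were higher in LEKU and 4 lower, Cnot2 at −1.08 and Cnot1 at −0.73.

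Of the p38 and JNK cascade genes, 10 of 11 were kept. Over all genes kept, 23.4% were higher and 14.4% lower with etoposide. With etoposide 2 were higher, the p38 kinases' activators Map2k3 (1.16) and Map2k4 (0.71), the latter also acting on JNK, and 2 were lower, the p38 isoform Mapk11 (−1.60) and Map2k6 (−0.83). With KU55933, Mapk11 was higher than with etoposide alone (0.88) and Map2k3 lower (−0.71). In LEKU against LPS, 0 were higher and 3 lower, with Map2k6 at −1.29 and Mapk11 at −0.72. Map3k4, the kinase that Gadd45 proteins bind, was at −0.55 with etoposide, under 1.5-fold, and at −0.63 in LEKU against LPS, past it. Among 4 cell cycle and replication partners, Cdkn1a, which encodes p21, was at 402, 13655 and 10871 in LPS, LE and LEKU (5.08 with etoposide). Ccnb1 and Cdk1 were lower with etoposide, at −1.83 and −1.52, and Cdk1 lower again with KU55933 (−0.68). In LEKU against LPS, 1 of the 4 was higher, Cdkn1a at 4.76, and 3 were lower, Cdk1 and Ccnb1 both at −2.20.

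Of 6 demethylation and repair genes tied to Gadd45, 2 were higher with etoposide and 0 lower, beside 23.4% and 14.4% of all genes kept. Ercc5, the XPG endonuclease, went from 652 to 6261 (3.26) and the methylcytosine dioxygenase Tet1 from 199 to 668 (1.74). With KU55933, 0 were higher and 1 lower than with etoposide alone, Tet1 at −1.48. Against LPS, 1 was higher in LEKU, Ercc5 at 2.76, and 0 were lower.

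**Figure D5:**
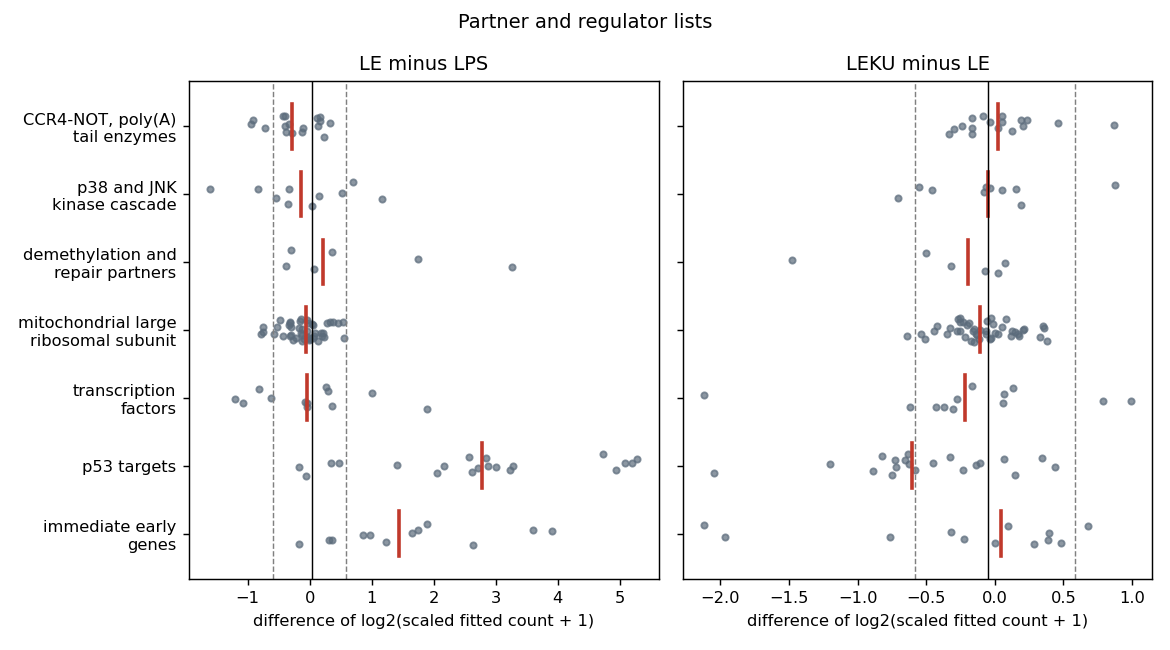
Difference of log2(scaled fitted count + 1) in LE minus LPS (left) and LEKU minus LE (right) for each kept gene of 7 lists of partners and regulators. Grey points are genes, red bars list medians, the black line the median of all genes kept and dashed lines 1.5-fold. The p53 targets have a median of 2.79 on the left and −0.60 on the right.

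Among 12 transcription factor genes known to act on the Gadd45, Btg or Tob genes, 2 were higher with etoposide (Egr1, 1.89, and Foxo3, 1.00) and 4 lower, Myc (−1.20) and Nfkb1 (−1.08) the furthest. Over all genes kept, 23.4% were higher and 14.4% lower. With KU55933 under etoposide, 2 were higher, Atf4 (0.99) and Atf3 (0.79), mediators of the integrated stress response, and 2 lower, Egr1 (−2.12) and Foxo3 (−0.62). Atf4 was among the 4 lower with etoposide (−0.63), and its difference in LEKU against LPS was 0.37, under 1.5-fold. In LEKU against LPS, 1 was higher, Atf3 at 1.16, and 3 lower, with Foxo1 at −1.09 and Myc at −1.07. Trp53 mRNA itself was at −0.05 with etoposide and −0.17 with KU55933 under it.

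Of 20 p53 targets outside these families, 16 were higher and 0 lower with etoposide (median 2.79), Plk2 at 5.29 and Perp at 5.21. With KU55933, 0 were higher and 10 lower than with etoposide alone (median −0.60), Perp at −2.05 and Eda2r at −1.20. Against LPS, LEKU had 17 higher and 1 lower, with Phlda3 at 4.83 and Sesn1 at −0.62. For Btg2 and Gadd45a, the members described above as p53 targets, the difference LEKU against LE was −0.44 and 0.03. Of 12 immediate early genes, 9 were higher and 0 lower with etoposide (median 1.44), Fos at 3.91 and Fosb at 3.60. With KU55933, 1 was higher (Ier2, 0.68) and 3 lower, Egr1 at −2.12 and Egr2 at −1.96. Against LPS, 8 were higher in LEKU, Fos at 4.00 the furthest, and 1 was lower, Egr2 at −0.995.

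Markers of the labelled cell type were high in all conditions. The 7 B-cell markers summed to 133795 with LPS, 75645 with LE and 84773 with LEKU, and 5 of them were lower with etoposide, Cd22 at −2.44 and Pax5 at −2.25. Over all genes kept, 23.4% were higher and 14.4% lower with etoposide. Of 6 T-cell markers, Lck alone was kept, Cd3d, Cd3e, Cd3g, Cd4 and Cd8a did not pass the filter, and the sum of all 6 went from 422 to 308 and 281. The 6 macrophage markers, all kept, summed to 407, 475 and 434, with 3 higher and 1 lower in LE against LPS. The 6 red-cell markers, 3 of them kept, summed to 213, 189 and 117. The 4 plasmablast markers summed to 20589, 21068 and 13433. With etoposide 1 of them was higher, Sdc1, the plasma cell surface proteoglycan (3.87), and 0 were lower, and with KU55933 under etoposide 0 were higher and 2 lower, Sdc1 at −1.63 and the transcription factor gene Irf4 at −0.97. Prdm1 and Xbp1 were at −0.40 and −0.46 with etoposide, under 1.5-fold. Against LPS, 1 was higher in LEKU (Sdc1, 2.24) and 2 lower (Prdm1, −0.90, and Irf4, −0.82). The part of these shifts in the values of the Gadd45, Btg and Tob genes was not tested.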

How the data were processed

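Poly(A) RNA of 12 libraries (LPS, LE and LEKU, 4 each) was analysed. Per the submitters' processing notes the tools were Trim Galore, cutadapt 1.2.1, TopHat2 2.0.12, HTSeq and DESeq2 1.6.3 on GRCm38. The deposited values are a normalized signal per gene, which is the fitted mean of a condition times a library factor. The columns as deposited thus still hold differences between library totals. No value is 0 (the lowest is 0.0635), so that ratios of low genes may be moderated. The authors' 3 comparison files also hold fold changes, errors and p-values, which were not used. Only their mean signal per gene served as a scaling alternative.

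Values were divided by factors from the median of ratios over the 13712 genes with at least 10 in every library. This gene set was chosen after values scaled over all genes had been seen, and it moved Tob2 past the threshold in LE against LPS. Genes with at least 10 in 4 libraries were kept, and differences used log2(value + 1). The planned limma fit could not be run without replicate spread, so a ratio past 1.5-fold was the call. The functions were checked on simulated data. Exons came from GENCODE M21. The genes, lists, motifs and rules were chosen with earlier results of these data known. Some results for other genes are not reported here. The genes named are the 9 genes, from each list and comparison the 2 furthest each way past 1.5-fold, Cdkn1a, and the 3 nearest neighbours. Map3k4, Cnot7, Cnot8, Trp53, Xbp1 and the T-cell markers were named after their values were seen. Alternatives were other scalings, filters, pseudocounts and folds, and leaving out each library. Python 3.11.15 was used with pandas 2.3.3, numpy 2.4.6, matplotlib 3.10.9 and scipy 1.17.1.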

Additional observations from a re-analysis of the deposited data

How the results depend on the processing

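No value of the 9 genes that passed 1.5-fold changed direction under any alternative run. Leaving out each library in turn moved none of 324 differences across 1.5-fold and by at most 0.00684 (log2). This says nothing of replicate error, since the columns of a condition carry 1 fitted mean. No paired analysis was possible because these columns hold no replicate spread. Of 351 differences under the other alternatives, 22 lay on the other side of the threshold, and the largest move of any was 0.335. The 22 include crossings under the other folds, where the difference stays the same and only the threshold moves. The other filters could not change the difference of a gene either. These counts are therefore not a measure of how stable the differences are.

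With the columns as deposited, 1 gene (Gadd45b) rather than 2 was higher in LEKU against LE, and over all genes 1139 were lower in LE against LPS and 1389 in LEKU against LPS. The median of all genes in LE against LPS was then 0.31, against 0.04. Quantile normalization gave 3394 lower genes in LE against LPS. A minimum of 50 gave 2368 higher in LE against LPS and 1201 lower in LEKU against LE. Past 2-fold, 0 of the 9 genes were higher in LEKU against LE. Over all genes, 2356 were then higher and 808 lower in LE against LPS, 267 and 732 in LEKU against LE, and 1865 and 837 in LEKU against LPS. Past a smaller ratio of 0.32 (log2), 3 of the 9 (Btg2, Btg3 and Tob1) were lower in LEKU against LE. Over all genes, 4049 were lower in LE against LPS, 2670 higher and 3825 lower in LEKU against LE, and 5228 higher and 4013 lower in LEKU against LPS.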
